A study of Mus musculus with 8 samples.

Results

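The Toll-like receptor genes Tlr1 to Tlr9 and the adaptor gene Myd88 were taken by gene name, and each name matched 1 row, giving 10 of the 55401 genes in the table. Their RNA was measured by bulk RNA-seq of whole tibialis anterior (TA) muscle, a hindlimb muscle of mostly fast fibers. There were 4 mdx5cv mice, a model of Duchenne muscular dystrophy with a mutation in Dmd, the dystrophin gene, and 4 wild-type (WT) mice that carry the normal gene. All 8 animals were males of 6 mo on the strain labelled C57/Bl6, which the methods of the study name C57BL/6J, and no treatment is given for either group. The mutation is in the germ line, so every cell of the mdx5cv animals carries it. All libraries were made in a stranded way from total RNA. Each group was sampled as 4 muscles with labels numbered 1 to 4, and no label gives a litter, a cage or a batch. That each muscle came from a separate animal is taken here, as no label states it.

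Toll-like receptors are membrane proteins of innate immunity. Each binds microbial molecules, or molecules released by damaged cells, through a leucine-rich repeat domain, and passes the signal on through a TIR domain inside the cell. One set sits on the cell surface (Tlr1, Tlr2, Tlr4, Tlr5 and Tlr6) and reads lipids and proteins. Another set sits in endosomes (Tlr3, Tlr7, Tlr8 and Tlr9) and reads nucleic acids. Nearly all signal through Myd88, which recruits Irak kinases and leads to NF-kB, whereas Tlr3 signals through Ticam1. Macrophages carry most of these receptors, and dystrophic muscle, with its cycles of fiber death and repair, is known to be rich in macrophages.

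The values are normalized counts, that is, reads per gene divided by a size factor for each library. The WT libraries held 13862559 to 14921057 gene reads and the mdx5cv libraries 13175524 to 14502624, with size factors of 0.873 to 0.944 and of 1.06 to 1.25. Of all genes, 13677 reached 10 normalized counts on average and were tested with limma on log2(normalized count + 1). A gene was called where its adjusted p was under 0.05 and its log2 fold change was 1 or more in either direction, and 1414 genes were called higher and 447 lower in mdx5cv, so that 76.0% of the calls were higher. With every library scaled to the same total instead, 2255 genes were called higher and 209 lower (91.5% higher), because the median gene then moved from a log2 fold change of 0.00 to 0.36. Dmd itself had 6954 ± 857 (SD, n = 4) normalized counts in WT and 3964 ± 388 in mdx5cv muscle, a log2 fold change of -0.81 (SE 0.12, adjusted p = 0.000177), with no overlap of the groups. The mature fast fiber markers that fit a TA muscle (Ckm, Acta1, Tnnt3, Actn3, Myh4) were abundant in every library. The mdx5cv replicate 4 library stood apart. Its summed macrophage markers were 9480 normalized counts against 3972 to 5440 in the other mdx5cv muscles, its regenerating fiber markers 8183 against 2102 to 4665, and its mature fast fiber markers 612870 against 879170 to 935940. It also held the highest mdx5cv value of all 10 members, while mdx5cv replicate 3 held the lowest value of 8 of them. Results that rest on it are given with and without it. In whole muscle, a change in the number of cells that carry a gene and a change in its RNA per cell cannot be told apart.

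Of the 10 members, 8 were called higher in mdx5cv muscle (Tlr1, Tlr2, Tlr4, Tlr6, Tlr7, Tlr8, Tlr9 and Myd88), 0 were lower by limma, edgeR or DESeq2 (0 also at an unadjusted p under 0.05), and Tlr3 and Tlr5 were not called. Over all genes tested, 10.3% were called higher and 3.27% lower. All mdx5cv muscles lay above all WT muscles for the same 8 members, against 20.3% of all genes tested. The median log2 fold change was 1.97 over the members and 0.00 over all genes tested. All 10 members passed the filter on low values, but Tlr1, Tlr7, Tlr8 and Tlr9 had a WT mean under 10 and passed through their mdx5cv values. With no filter on low values, 8 members were called as well, but that setting adds no member, as all 10 had passed. With a minimum of 10 in every sample, 3 members were tested and 1 was called higher. Under that filter 729 of all 11784 genes tested were called higher. In mdx5cv muscle the macrophage markers moved with the members: 8 of 8 were called higher. Their median log2 fold change was 2.94 and their summed level 574 to 872 normalized counts in WT and 3972 to 9480 in mdx5cv, and their part in the change of the members was not tested. Of these, Mrc1 was no longer called without mdx5cv replicate 4, with a log2 fold change of 0.95. Lyz2 alone averaged 243 normalized counts in WT and 3285 in mdx5cv, a large part of the sums. Itgam had a WT mean of 3.88 and passed the filter through its mdx5cv values.

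**Figure D1:**
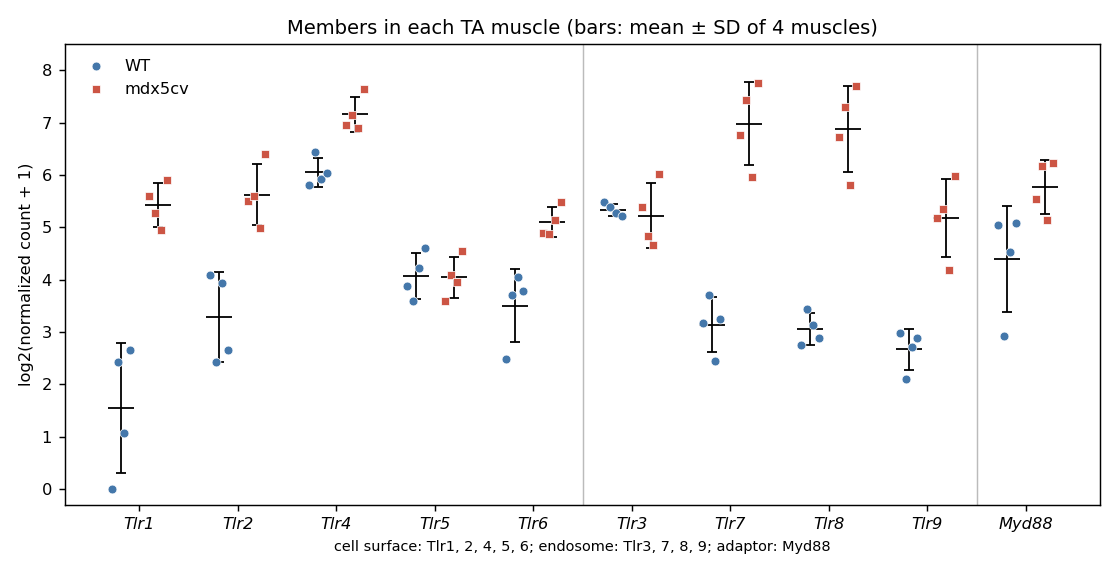
Normalized counts of the 10 members in each TA muscle, as log2(normalized count + 1), with WT as circles and mdx5cv as squares, and black bars for the mean ± SD of 4 muscles. All mdx5cv squares lie above all WT circles for 8 members, while the groups overlap for Tlr3 and Tlr5.

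Among the surface receptors, Tlr2 and its partners Tlr1 and Tlr6 were higher in mdx5cv. Tlr2 forms heterodimers with either partner, and the pairs recognize bacterial lipopeptides. Tlr2 (chr3:83836272-83841767, minus strand, GRCm38) had 16.0, 4.39, 14.4 and 5.30 normalized counts in WT replicates 1 to 4 and 44.5, 47.2, 30.6 and 83.9 in mdx5cv replicates 1 to 4. The lowest mdx5cv muscle was above the highest WT muscle, and the WT muscles fell into a higher and a lower pair. This was a log2 fold change of 2.34 (SE 0.41, adjusted p = 0.00062).

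Tlr1 (chr5:64924679-64933563, minus strand) had 0, 4.39, 1.11 and 5.30 normalized counts in WT replicates 1 to 4, which rest on 0, 4, 1 and 5 reads. In mdx5cv replicates 1 to 4 it had 47.2, 37.7, 29.7 and 59.1. The groups did not overlap, and the ratio of the group means was 16.1. The log2 fold change of 3.89 (SE 0.53, adjusted p = 0.000100) is one of the largest among the members, and with so few WT reads its size depends on the pseudocount, from 2.07 with a pseudocount of 10 to 5.01 with one of 0.1.

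Tlr6 (chr5:64952031-64960097, minus strand) had 4.58, 12.1, 15.5 and 12.7 normalized counts in WT and 28.7, 28.3, 34.2 and 44.0 in mdx5cv. The groups did not overlap, with a log2 fold change of 1.6 (SE 0.34, adjusted p = 0.00229). Tlr1 and Tlr6 are neighbors on the same strand, and parts of their coding sequences are identical in the genome. Of the 50-base windows of their exons, 454 occur in both genes, which is most of the 15.4% of Tlr1 windows and 12.3% of Tlr6 windows that occur in another gene on the same strand. A read that falls wholly in such a window cannot be assigned to either gene, so the values of both are uncertain to that extent. A transcript of each gene holds 3 identical stretches of 100 bases or more, 556 bases together, in which these genes cannot be separated. The longest identical coding stretch is shown as an example. It has 229 bases, at chr5:64925537-64925765 in Tlr1 and chr5:64953828-64954056 in Tlr6 (GRCm38, minus strand), and is written 5′ to 3′ on the coding strand.
Tlr1 and Tlr6: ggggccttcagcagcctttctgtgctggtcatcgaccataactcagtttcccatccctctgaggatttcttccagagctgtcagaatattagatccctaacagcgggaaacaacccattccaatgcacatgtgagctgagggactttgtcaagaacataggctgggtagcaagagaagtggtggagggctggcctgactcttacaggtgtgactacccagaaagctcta

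Tlr4 (chr4:66827584-66930284, plus strand), the receptor for lipopolysaccharide, had the highest level per length of the receptors in WT muscle. It had 55.0, 85.6, 59.7 and 64.6 normalized counts in WT and 123, 141, 118 and 198 in mdx5cv. The groups did not overlap, and the WT muscles already carried 48 to 78 reads each, more than for any other receptor. The log2 fold change was 1.11 (SE 0.19, adjusted p = 0.000528), close to the threshold of 1. Without mdx5cv replicate 4 it was 0.95 (adjusted p = 0.00137) and no longer called.

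Tlr5 (chr1:182954788-182976044, plus strand), the receptor for bacterial flagellin, was not called. It had 13.8, 11.0, 17.7 and 23.3 normalized counts in WT and 11.1, 16.0, 14.4 and 22.4 in mdx5cv. The groups overlapped almost fully. The log2 fold change was -0.03 (SE 0.31, adjusted p = 0.953), with a 95% interval from -0.70 to 0.65, so a change of less than about this size in either direction was not detectable here. Its sign is positive with equal totals (0.31), which is under the shift of the median of all genes under that scaling.

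The endosomal receptors divided in the same manner, with Tlr7, Tlr8 and Tlr9 higher and Tlr3 not called. Tlr7 is a receptor for single-stranded RNA, and Tlr8 is its neighbor on the X chromosome. Tlr7 (chrX:167304929-167330558, minus strand) had 8.02, 12.1, 4.42 and 8.47 normalized counts in WT and 107, 172, 61.2 and 214 in mdx5cv. The lowest mdx5cv muscle, replicate 3, was above the highest WT muscle, and the ratio of the group means was 16.8. On the log2 scale Tlr7 differed by 3.83 (SE 0.37, adjusted p = 6.83e-06).

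Tlr8 (chrX:167242696-167264329, minus strand) had 5.73, 9.87, 7.74 and 6.36 normalized counts in WT and 105, 157, 54.9 and 206 in mdx5cv. The order of the mdx5cv muscles was that of Tlr7, with replicate 4 highest and replicate 3 lowest. The log2 fold change was 3.83 (SE 0.35, adjusted p = 5.17e-06), with a 95% interval from 3.08 to 4.58. The exons of Tlr7 and Tlr8 shared no window of 50 bases with each other or with another gene.

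Tlr9 (chr9:106222598-106226883, plus strand), the receptor for unmethylated CpG DNA, had 6.88, 3.29, 5.53 and 6.36 normalized counts in WT and 35.2, 39.6, 17.1 and 62.3 in mdx5cv. The WT values rest on 3 to 6 reads per muscle and the mdx5cv values on 19 to 78. The groups did not overlap, and the log2 fold change was 2.51 (SE 0.38, adjusted p = 0.00023).

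Tlr3 (chr8:45395665-45411080, minus strand), the receptor for double-stranded RNA, had 43.5, 40.6, 37.6 and 36.0 normalized counts in WT and 40.8, 27.4, 24.3 and 63.9 in mdx5cv. The WT muscles were close together, at 39.4 ± 3.33 (SD, n = 4), and lay within the wider mdx5cv range, at 39.1 ± 18.0. Tlr3 differed by a log2 fold change of -0.11 (SE 0.27, adjusted p = 0.772), with a 95% interval from -0.69 to 0.47. Its sign is positive with equal totals (0.24), which is again under the shift of the median. Of the 50-base windows of Tlr3 exons, 5.30% occur on the other strand in the overlapping antisense gene Gm45542, and whether the counting kept the strands apart is not given in the sources used here.

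Myd88 (chr9:119335934-119341411, minus strand), the adaptor, had 32.1, 6.58, 22.1 and 32.8 normalized counts in WT and 45.4, 70.8, 34.2 and 73.5 in mdx5cv. The lowest mdx5cv muscle was just above the highest WT muscle, and WT replicate 2 was far below the other WT muscles, with 6 reads. Myd88 had a log2 fold change of 1.37 (SE 0.42, adjusted p = 0.0199), the largest adjusted p of the called members. It was no longer called without WT replicate 2 (log2 fold change 0.88, adjusted p = 0.0277), without mdx5cv replicate 2 (1.24, adjusted p = 0.0505) or without mdx5cv replicate 4 (1.22, adjusted p = 0.0601). Its exons overlap Acaa1a on the opposite strand, and 7.42% of its 50-base windows occur in that gene.

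**Figure D2:**
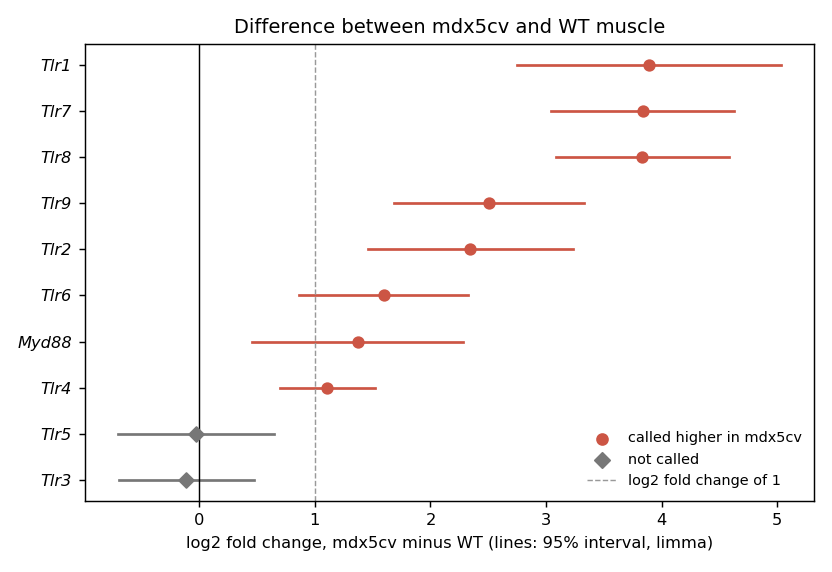
Log2 fold change of each member (mdx5cv minus WT, limma), with lines for the 95% interval, circles for members called higher and diamonds for members not called. The values run from -0.11 for Tlr3 to 3.89 for Tlr1, and the intervals of Myd88, Tlr4 and Tlr6 reach below 1.

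RefSeq promoter sequences (250 bases before the RefSeq start of a gene and 50 from it on, build GRCm38.p6) were matched for 8 of the 10 members by symbol, and none was matched for Tlr4 and Tlr7. They were searched on both strands for the NF-kB site, for GAGGAA (letters found in sites of Ets factors such as PU.1, a regulator of myeloid genes), for the core of interferon response elements (GAAA, any 2 bases, GAAA) and for TTCNNNGAA (letters of Stat sites). The motifs were held by 4.51%, 28.3%, 3.44% and 8.30% of the 32851 promoters of this length. An NF-kB match was found in Tlr2 and Tlr3, GAGGAA in Tlr1, Tlr8 and Tlr9, the interferon response core in Tlr6 and Myd88, TTCNNNGAA in Tlr1, Tlr6, Tlr8 and Myd88, and 0 of the 4 in Tlr5. The RefSeq start can differ from the GENCODE gene start used for the positions given above. It is the same base for Tlr5 and Tlr8 but lies 159 bases inside the GENCODE gene for Tlr2 and 700 bases inside it for Tlr3. The 8 members had 10 promoter entries, with 2 each for Tlr1 and Tlr6, whereas the background shares are per promoter. The entries with the interferon response core lie 931 bases (Tlr6) and 1393 bases (Myd88) inside the GENCODE gene. The Tlr1 entry with TTCNNNGAA lies 864 bases inside it. Matches were present in called members and in Tlr3, which was not called. The sequences of 2 called members and of the members not called are shown for this contrast, 5′ to 3′ on the strand of the gene, with matches in capitals. In Tlr2 (chr3:83841559-83841858, minus strand) the capitals mark overlapping NF-kB matches that begin 173 and 172 bases before the start, and another that begins 8 bases before it. In Tlr8 (chrX:167264280-167264579, minus strand) they mark TTCNNNGAA and, on the other strand, GAGGAA. In Tlr3 (chr8:45410331-45410630, minus strand) they mark the NF-kB match that begins 211 bases before the start, and Tlr5 (chr1:182954538-182954837, plus strand) has no capitals.
Tlr2: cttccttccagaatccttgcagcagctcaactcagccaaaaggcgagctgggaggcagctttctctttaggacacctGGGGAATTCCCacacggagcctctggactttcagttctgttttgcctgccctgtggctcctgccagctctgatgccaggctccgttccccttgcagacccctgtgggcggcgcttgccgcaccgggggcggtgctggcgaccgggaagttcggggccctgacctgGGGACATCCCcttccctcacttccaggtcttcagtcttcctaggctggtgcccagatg
Tlr8: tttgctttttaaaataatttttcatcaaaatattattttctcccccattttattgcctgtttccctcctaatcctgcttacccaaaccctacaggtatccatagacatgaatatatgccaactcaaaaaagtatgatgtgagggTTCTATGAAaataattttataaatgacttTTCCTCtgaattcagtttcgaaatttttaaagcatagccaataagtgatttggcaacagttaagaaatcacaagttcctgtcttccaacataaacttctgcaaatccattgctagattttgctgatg
Tlr3: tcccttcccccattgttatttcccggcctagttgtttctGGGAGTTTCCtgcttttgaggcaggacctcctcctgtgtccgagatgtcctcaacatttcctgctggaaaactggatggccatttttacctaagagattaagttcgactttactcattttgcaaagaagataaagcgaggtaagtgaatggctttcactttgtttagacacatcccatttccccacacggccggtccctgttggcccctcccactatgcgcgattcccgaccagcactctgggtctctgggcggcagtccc
Tlr5: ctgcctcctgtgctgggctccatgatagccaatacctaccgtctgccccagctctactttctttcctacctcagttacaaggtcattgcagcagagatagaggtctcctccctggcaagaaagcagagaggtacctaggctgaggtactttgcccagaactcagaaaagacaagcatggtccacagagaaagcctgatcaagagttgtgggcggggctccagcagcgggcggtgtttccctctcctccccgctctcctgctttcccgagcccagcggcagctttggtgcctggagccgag

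To compare the members with each other, normalized counts were divided by the exonic length of each gene. In WT muscle the order of the mean level per kb of exon was Tlr4, Myd88, Tlr3, Tlr5, Tlr2, Tlr6, Tlr8, Tlr7, Tlr9 and Tlr1. The levels per kb ran from 11.9 ± 2.43 (SD, n = 4) for Tlr4 to 0.81 ± 0.76 for Tlr1. Of neighbors in this order, only Tlr3 (6.92 to 8.36 per kb) and Tlr5 (2.29 to 4.87) had ranges that did not overlap. In mdx5cv muscle the order was Tlr8, Tlr7, Tlr4, Myd88, Tlr2, Tlr1, Tlr9, Tlr6, Tlr3 and Tlr5, from 36.4 ± 18.2 for Tlr8 to 3.34 ± 0.99 for Tlr5, and the ranges of all neighbors overlapped. Tlr8 was thus at rank 7 in WT and rank 1 in mdx5cv, and Tlr3 at rank 3 and rank 9.

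The summed level of the receptors Tlr1 to Tlr9 was 35.7 ± 2.01 per kb (SD, n = 4) in WT and 157.6 ± 61.3 in mdx5cv muscle. Tlr8 made up 4.81% to 7.22% of this sum in WT and 16.6% to 26.4% in mdx5cv. Tlr7 made up 3.03% to 7.75% and 16.2% to 25.4%. Both shares were larger in every mdx5cv muscle than in any WT muscle. The share of Tlr3 was 19.3% to 25.2% in WT and 3.17% to 5.82% in mdx5cv, that of Tlr4 was 29.8% to 40.4% and 15.0% to 23.0%, and that of Tlr5 was 6.00% to 13.6% and 1.73% to 3.26%. The share of Tlr1 was 0% to 4.42% in WT and 6.81% to 10.5% in mdx5cv. The shares of Tlr2, Tlr6 and Tlr9 overlapped between the groups. No test was run on these shares, which are not independent of each other or of the fold changes above.

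**Figure D3:**
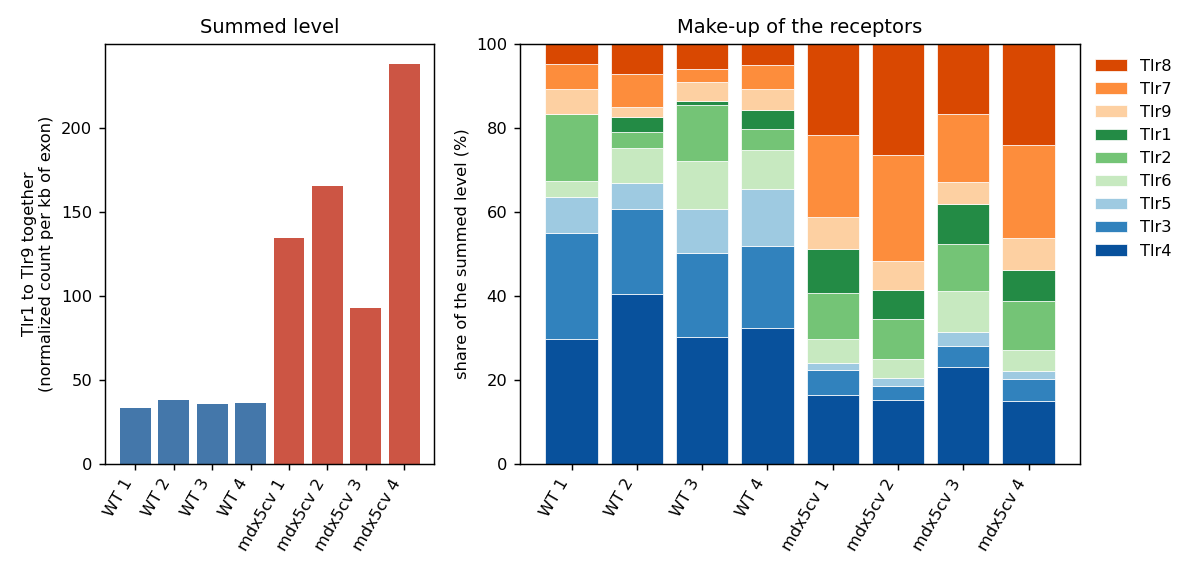
Left, summed level of Tlr1 to Tlr9 in each muscle in normalized counts per kb of exon, and right, the share of each receptor in that sum in percent. The WT sums lie between 33.2 and 38.1 and the mdx5cv sums between 92.4 and 237.8, and the Tlr7 and Tlr8 segments are larger in all 4 mdx5cv muscles.

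Since the macrophage markers rose as well, each member was also set against them in the same muscle, as the log2 value of the member minus the mean log2 value of 8 macrophage markers (Adgre1, Cd68, Csf1r, Mrc1, Itgam, Lyz2, C1qa and Mertk). That mean was 5.78 ± 0.29 (SD, n = 4) in WT and 8.52 ± 0.50 in mdx5cv. In this measure Tlr7 went from -2.64 ± 0.55 in WT to -1.55 ± 0.55 in mdx5cv, a difference of 1.09, and Tlr8 from -2.73 ± 0.19 to -1.64 ± 0.55, also a difference of 1.09. Both were higher relative to this mean, with no overlap of the groups. For Tlr7 the groups nearly touched, with -2.185 in the highest WT muscle and -2.136 in the lowest mdx5cv muscle. Tlr4 differed by -1.64, Tlr6 by -1.15, Tlr3 by -2.85 and Tlr5 by -2.77, so that these 4 were lower relative to it, with no overlap either. The mean of the markers itself rose by 2.74 with no overlap (5.36 to 6.02 in WT and 8.10 to 9.24 in mdx5cv). Tlr3 and Tlr5, which hardly changed themselves, were thus almost bound to lie lower, and their differences restate the rise of the markers. The markers themselves were spread, with log2 fold changes from 1.15 for Mrc1 and 1.27 for Mertk to 3.69 for Lyz2 and 3.91 for Cd68. The log2 fold changes of Tlr7 and Tlr8 (3.83) lie between those of Lyz2 and Cd68, and those of Tlr4 (1.11) and Tlr6 (1.6) are near those of Mrc1 and Mertk, so the direction relative to any 1 marker depends on the marker. Each of these 6 differences had p = 0.0286 by a two-sided exact permutation test over the 8 muscles, the smallest p that the design allows, and 0.0476 after Benjamini-Hochberg adjustment over the 10 members compared. That adjusted value is reached only because 6 members are at the smallest p. Tlr3 and Tlr5 are among these 6, so it is not a result for Tlr7 and Tlr8 on their own. In WT muscle Tlr7 and Tlr8 averaged 8.25 and 7.42 normalized counts and passed the filter on low values through their mdx5cv values. Tlr4 and Tlr6 rose, but less than the mean of the markers. These p-values thus describe the separation of the groups and are no support for a change relative to macrophages. With any 1 of the 8 muscles left out, 3 to 5 stood at the smallest p, too few for the adjusted value to pass. The differences themselves kept their sign with 1 muscle left out, from 0.83 to 1.29 for Tlr7, 0.86 to 1.31 for Tlr8, -1.72 to -1.56 for Tlr4, -1.35 to -0.99 for Tlr6, -2.93 to -2.67 for Tlr3 and -3.02 to -2.63 for Tlr5. Adding 10 instead of 1 before the logarithm left 5 at the smallest p and 0 past the adjusted threshold, with differences of 0.49 for Tlr7 and 0.46 for Tlr8.

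The other 4 members did not pass this test. Tlr1 differed by 1.15 relative to the macrophage markers (exact permutation p = 0.0571), Tlr2 by -0.40 (p = 0.514 in the same exact test), Tlr9 by -0.24 (exact p = 0.514) and Myd88 by -1.37 (exact p = 0.143). With an added constant of 10 the sign for Tlr1 turned (-0.35), and without WT replicate 1 the differences of Tlr2 and Tlr9 were near 0 (0.01 and 0.0067). With dendritic cell markers in place of macrophage markers, 6 members passed as well. Tlr7 and Tlr8 stayed higher, Tlr3 and Tlr5 stayed lower, and Tlr1 (2.54) and Tlr9 (1.15) were higher and now passed. Tlr4 (-0.25) and Tlr6 no longer passed, and the signs for Tlr2, Tlr6, Tlr9 and Myd88 turned. Of the dendritic cell markers, 2 of 6 were abundant enough to be tested and 0 were called by limma, edgeR or DESeq2 or had an unadjusted p under 0.05. Their sum, 109 to 155 normalized counts in WT and 143 to 205 in mdx5cv, is mostly Zbtb46 (114 and 117 on average), which endothelium also carries. The low markers Flt3 (1.06 to 3.32 in WT and 4.72 to 27.2 in mdx5cv), Xcr1 (0 and 2.70 to 8.79) and Clec9a (0 to 2.29 and 7.20 to 12.8) did not overlap between the groups and were higher in every mdx5cv muscle. In the mean log2 value of the dendritic cell markers each gene weighs the same. Zbtb46 and Cd209a had log2 fold changes of 0.05 and 0.39, so the rise of that mean rests mostly on these low markers. Among the neutrophil markers, Retnlg and Ngp had no read in any muscle, Ly6g, Mpo and Cxcr2 had reads in at most 3 muscles, never over 1.11 normalized counts, and Csf3r, which monocytes also carry, was at 6.02 and 52.9 on average. The B cell and T cell markers had sums of at most 17.5 and 45.5 in any muscle, and T cell markers were higher in every mdx5cv muscle (17.6 to 45.5) than in WT (2.29 to 4.39). Endothelial markers were lower in mdx5cv (1705 to 2161, against 2891 to 3438 in WT), with a median log2 fold change of -0.74. Of these 5 genes, 5 passed the adjusted p (0.000138 to 0.00239) and 0 reached the fold change needed for a call by limma, edgeR or DESeq2. Fibroblast markers were called higher for 2 of 4 and regenerating fiber markers for 4 of 4. The part of each cell type in the change of the members was not tested.

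**Figure D4:**
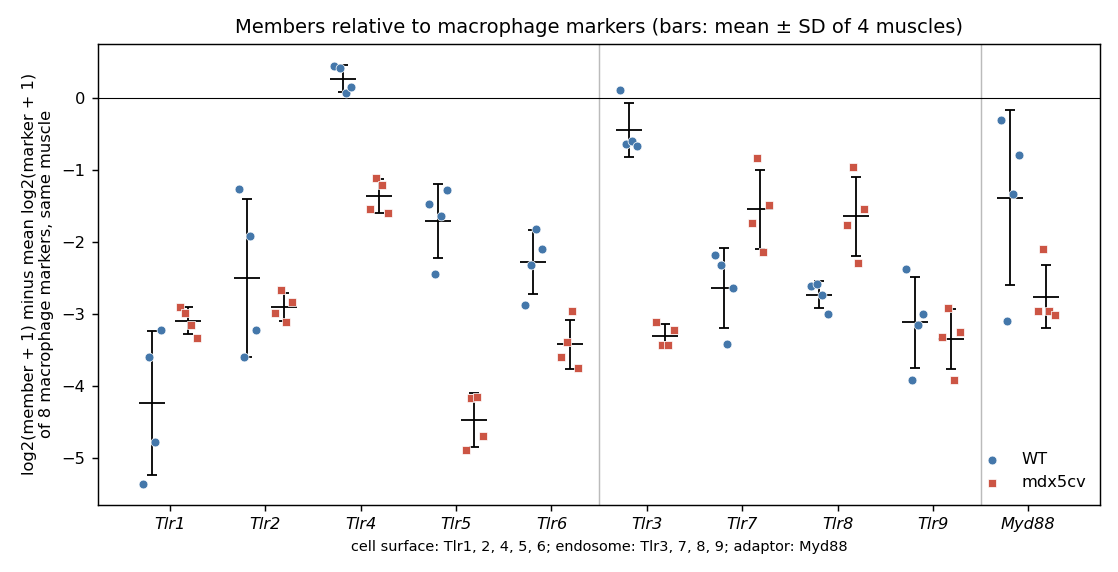
Each member minus the mean of 8 macrophage markers in the same muscle, in log2 units, with WT as circles, mdx5cv as squares, and black bars for the mean ± SD of 4 muscles. Tlr7 and Tlr8 lie higher in mdx5cv, and Tlr3, Tlr4, Tlr5 and Tlr6 lie lower, with no overlap of the groups.

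Around the members, 75 genes of the pathway were listed by role, and 55 were abundant enough to be tested. Of these, 17 were called higher and 1 lower in mdx5cv, with a median log2 fold change of 0.56. The background for calls is as given for the members (10.3% higher and 3.27% lower). Of the tested genes, 7 had a WT mean under 10 and passed the filter through their mdx5cv values. These were Tlr13, Cd14, Cd180, Ly86, Ccl2, Cxcl10 and Il1rl1, all called higher. With a minimum of 10 in every sample, 45 pathway genes were tested, 8 called higher and 1 lower. Under that filter 729 of all 11784 genes tested were called higher and 275 lower.

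The mouse has further receptors, Tlr11, Tlr12 and Tlr13. Tlr13, an endosomal receptor for bacterial ribosomal RNA, had 5.73, 1.10, 1.11 and 7.42 normalized counts in WT and 177, 123, 102 and 306 in mdx5cv. The ratio of its group means was 46.1 and its log2 fold change 5.35 (SE 0.47, adjusted p = 4.73e-06), larger than that of any member. Tlr11 and Tlr12, which recognize a profilin of protozoan parasites, had no read in any WT muscle and 1 to 8 and 3 to 23 reads in the mdx5cv muscles. Their mdx5cv means were 4.47 and 11.8 times a floor of 3 reads over the 4 WT libraries. These values leave out the spread of the mdx5cv reads, and both genes were too low to be tested.

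Of the 9 tested co-receptors and trafficking factors, 4 were called higher. Unc93b1, which carries the endosomal receptors out of the endoplasmic reticulum, had 48.1, 52.7, 75.2 and 68.9 normalized counts in WT and 335, 285, 276 and 509 in mdx5cv, a log2 fold change of 2.48 (SE 0.20, adjusted p = 2.38e-06). Cd14, which hands lipopolysaccharide to Tlr4, rose by 2.20 (SE 0.35), and Cd180 and its partner Ly86, a receptor complex related to that of Tlr4, rose by 3.88 (SE 0.58) and 3.27 (SE 0.28). Ly96, the essential partner of Tlr4, was too low to be tested (6.07 ± 2.91 in WT and 8.66 ± 4.38 in mdx5cv, with overlap). Cd36, a fatty acid transporter of muscle and endothelium that also assists Tlr2, was the only gene of the lists called lower, from 3578 ± 966 to 1643 ± 225 normalized counts. Its log2 fold change was -1.09 (SE 0.17, adjusted p = 0.000231), and it was no longer called without WT replicate 2 (-0.93) or with equal totals (-0.74). The chaperones Cnpy3 and Hsp90b1 had log2 fold changes of 0.67 (adjusted p = 0.00571) and 0.56 (adjusted p = 0.00514). Both were under the threshold of 1 but higher in every mdx5cv muscle than in any WT muscle.

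Of the other adaptors, 3 were tested and 1 was called. Pik3ap1, which links the receptors to phosphoinositide 3-kinase, rose from 14.7 ± 9.04 to 146 ± 74.5 normalized counts (log2 fold change 3.30, SE 0.41, adjusted p = 4.63e-05). Tirap, which bridges Tlr2 and Tlr4 to Myd88, had a log2 fold change of -0.04, and Ticam1, the adaptor of Tlr3, one of 0.77 (adjusted p = 0.0286), so neither was called. Of 16 kinases and ubiquitin ligases, 2 were called, both higher, a share near the 10.3% of all genes tested that were called higher. These were Irak4, the first kinase recruited by Myd88, at 1.41 (SE 0.24, adjusted p = 0.000518), and Ikbke, a kinase of the interferon arm, at 2.37 (SE 0.40, adjusted p = 0.00046). The other 14 had log2 fold changes from -0.58 to 0.61, under the threshold of 1. At an adjusted p under 0.05 without a minimum fold change, 7 of the 16 passed. Lower in mdx5cv were Tab2 (-0.58, adjusted p = 0.000396), Map3k7 (-0.53, adjusted p = 0.00119) and Traf6 (-0.44, adjusted p = 0.00563), which act after Irak4. Higher, besides the called genes, were Tbk1 (0.61, adjusted p = 0.00127), a relative of Ikbke, and Ripk1 (0.58, adjusted p = 0.00918). The groups did not overlap for any of the 7.

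Of 8 transcription factors, Nfkb2 and Irf7 were called higher. Nfkb2, which encodes a precursor of NF-kB, had a log2 fold change of 1.45 (SE 0.17, adjusted p = 2.57e-05). Irf7, which acts after Tlr7 and Tlr9 in the induction of interferon, had 25.2, 16.5, 26.5 and 27.5 normalized counts in WT and 74.1, 180, 49.5 and 109 in mdx5cv, and a log2 fold change of 1.93 (SE 0.33, adjusted p = 0.00048). Its highest value was in mdx5cv replicate 2, not in replicate 4 as for the members. Irf5 had a log2 fold change of -0.81 (adjusted p = 0.00633) with overlap of the groups. At an adjusted p under 0.05 without a minimum fold change, 5 of the 8 passed. Among them were Rel (0.74, adjusted p = 0.0109) and Relb (0.67, adjusted p = 0.00863), both higher in mdx5cv with no overlap. Of 7 inhibitors (Irak3, Tollip, Tnfaip3, Nfkbia, Sigirr, Socs1 and Cyld), 0 were called by limma, edgeR or DESeq2, 1 had an unadjusted p under 0.05 with a higher and 1 with a lower value, and their log2 fold changes ran from -0.25 to 0.74. At an adjusted p under 0.05 without a minimum fold change, 1 of them passed, Tnfaip3 at 0.69 (adjusted p = 0.00535), and it was called with equal totals (1.04).

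Of 4 tested genes for endogenous ligands, 3 matrix genes were called higher, Tnc at 3.04 (SE 0.50), Bgn at 2.20 (SE 0.19) and Vcan at 1.63 (SE 0.24). Tenascin C, biglycan and versican are matrix proteins that can act on Tlr2 or Tlr4. Hmgb1, a nuclear protein released by dying cells, had a log2 fold change of -0.36 (adjusted p = 0.0255), with no overlap of the groups. S100a8, S100a9 and Saa3, ligands of Tlr4 made by neutrophils and other cells in acute inflammation, were at or under 2.56 normalized counts on average in either group.

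Of 13 targets that these receptors can induce, only Ccl2, Cxcl10 and Nfkbiz reached the filter, and Nfkbiz was not called (log2 fold change 0.76, adjusted p = 0.0115). Ccl2, a chemokine for monocytes, had 4.58, 2.19, 1.11 and 11.7 normalized counts in WT and 31.5, 43.4, 17.1 and 60.7 in mdx5cv, with a log2 fold change of 2.93 (SE 0.53, adjusted p = 0.000782). Cxcl10, a chemokine induced by interferon, rose by 3.26 (SE 0.50, adjusted p = 0.000264). The cytokines Tnf and Il1b averaged 6.59 and 4.73 normalized counts in mdx5cv and overlapped with WT, Il6, Il10 and Il12b averaged at most 1.96, and Ifnb1 had no read in any muscle. The chemokines Ccl3 and Ccl5 had no WT read and reads in all 4 mdx5cv muscles. Their mdx5cv means were 10.1 and 7.03 times the floor of 3 reads over the WT libraries, which leaves out the spread of the mdx5cv reads. No test was made for these genes at this depth. Of the interleukin receptors that also use Myd88, Il1rl1 (1.48, SE 0.34) and Il1rl2 (1.24, SE 0.26) were called higher, and both fell under the threshold with a pseudocount of 10 (0.93 and 0.94). Il1r1 was just under the threshold at 0.97 and was called without WT replicate 4, mdx5cv replicate 2 or mdx5cv replicate 3.

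**Figure D5:**
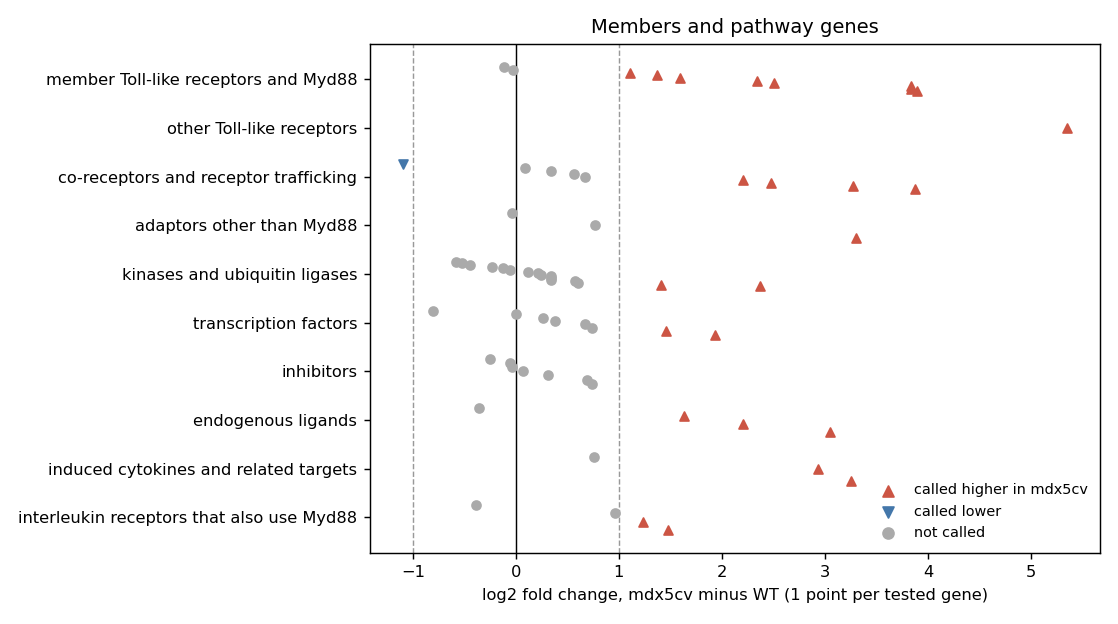
Log2 fold changes (mdx5cv minus WT, limma) of the members and of the 55 tested pathway genes by list, 1 point per gene, with upward triangles for genes called higher, a downward triangle for the gene called lower and circles for genes not called. Dashed lines mark -1 and 1, and Tlr13 is the point farthest to the right at 5.35.

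The mean log2 deviation of the 10 members from their WT mean was -0.13, -0.09, 0.03 and 0.20 in WT replicates 1 to 4 and 1.91, 2.10, 1.46 and 2.66 in mdx5cv replicates 1 to 4. The genes outside the members with the nearest profile, by the root mean square difference over the 8 muscles, were Slc29a3 (0.150), Themis2 (0.159), Vim (0.164), Myo5a (0.186) and Adamts7 (0.194). Slc29a3, a nucleoside transporter of lysosomes, had 34.3 ± 6.00 normalized counts in WT and 140 ± 55.5 in mdx5cv. Vim, which encodes the intermediate filament vimentin, had 820 ± 74.9 and 3467 ± 1264. These genes were selected for their likeness, so their changes are a description.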

How the data were processed

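RNA-seq was performed on TA muscles of 4 mdx5cv and 4 WT mice, grouped by their labels. The authors deposited a signal per gene, which is reads divided by a size factor for each library, for all genes. The submitters' processing notes name Trim Galore 0.6.4, STAR 2.6.0c, SAMtools 1.9, featureCounts, MultiQC 1.6, DESeq2 1.26.0, R 3.6.2 and the mm10 build, and the strand setting of the counting is not given in the sources used here. Dividing by the step of each library gave whole reads for 100% of values (tolerance 1e-06), and the steps matched median-of-ratios factors. Groups were compared with limma 3.58.1 (R 4.3.3) across all 13677 genes whose normalized counts averaged 10 or more. The fit used log2(value + 1) and a variance trend, was two-sided, and was adjusted by Benjamini-Hochberg. Because a pseudocount is added, fold changes of low genes are understated. As alternatives, the recovered reads were tested with the quasi-likelihood test of edgeR 4.0.16 and with DESeq2 1.42.0. The others were pseudocounts of 0.1 and 10, other filters and scalings, a replicate block and leaving out each muscle. The scripts were tested on simulated data. Lengths and positions are from GENCODE M21 on GRCm38, in which 55141 of 55401 gene IDs matched without version. No columns of comparisons by the authors were used. The genes named are the members, the genes of the pathway lists past the threshold or with a defining role, the 5 genes nearest in profile, Dmd and marker lists. The members and lists were chosen with earlier results of these data known. That the muscles of a group came from separate animals is taken here, as no label states it and nothing says otherwise. The p-values set the difference between the groups against the spread between these muscles.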

Additional observations from a re-analysis of the deposited data

Results flagged for a closer look

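A value was singled out where, in a group of 4 muscles, its gap to the nearest other muscle, as a share of the whole range, was over the 95% critical value of Dixon's test. Of 58 sets of 4 values examined, 3 held such a value, and chance alone gives about 2.9. The B cell markers of mdx5cv replicate 3 had a mean log2 value of 0.37, against 1.61 to 1.83 in the other mdx5cv muscles, at levels of a few reads per gene. Tlr3 minus the macrophage markers was 0.12 in WT replicate 1 and -0.67 to -0.59 in the other WT muscles. Myd88 minus the macrophage markers was -2.10 in mdx5cv replicate 2 and -3.02 to -2.96 in the other mdx5cv muscles. No normalized count of a member by itself was singled out in this way.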

How the results depend on the processing

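Of the 10 members, 8 were called under every scaling, pseudocount and tool tried, with a replicate block (8) and with no filter. Leaving out 1 muscle gave 6 to 8, with 6 without mdx5cv replicate 4. A minimum of 10 in every sample left 3 members tested and 1 called, because the WT values of the others are lower, and a log2 fold change of at least 2 left 5. The pathway genes called, 18, were 30 with no filter (74 tested), 9 with a minimum of 10 in every sample (45 tested), 11 with a log2 fold change of at least 2, 24 with equal totals (24 higher and 0 lower), 16 with a pseudocount of 10, and 17 to 19 with 1 muscle left out. The replicate block left 18. Same-numbered muscles deviated together with correlations of 0.031 to 0.146, so the numbers were not taken as pairs.

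Signs turned for Tlr3 with equal totals (0.24) and over the muscles left out (-0.38 to 0.076), and for Tlr5 with equal totals (0.31) and over the muscles left out (-0.19 to 0.15). Relative to macrophage markers, 6 members passed, among them Tlr3 and Tlr5, whose differences restate the rise of the markers. With a pseudocount of 10 or with any 1 muscle left out, 0 passed. With 1 muscle left out, 3 to 5 stood at the smallest p and the 6 kept their signs. In this measure the sign turned for Tlr1 with a pseudocount of 10 (-0.35), and with 1 muscle left out for Tlr2 (-0.76 to 0.010) and Tlr9 (-0.51 to 0.0067). With dendritic cell markers the values were 0.99 for Tlr2, 0.24 for Tlr6, 1.15 for Tlr9 and 0.014 for Myd88, because that reference rose less. With a pseudocount of 0.1 the same number passed, with Tlr1 in and Tlr6 out. Depth limits Tlr1, Tlr7, Tlr8 and Tlr9, whose WT muscles hold 0 to 11 reads each, and the cytokines.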
